A study of Mus musculus with 6 samples.

Results

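The ligands and receptors of the VEGF and angiopoietin systems were examined in MC38 tumors, as the 10 rows of the deposited gene table whose names are Vegfa, Vegfb, Vegfc, Pgf, Angpt2, Kdr, Flt1, Flt4, Tek and Tie1. They are 5 ligand genes and 5 receptor genes among the 33965 genes of the table. The MC38 line was derived from a mouse colon carcinoma, and all 6 tumors were grafts of it under the skin of C57BL/6 mice, which were female and 6 weeks old when bought. Of the tumors, 3 came from mice given PBS, the control, and 3 from mice given GB2, a prodrug that links the STING agonist MSA-2 to artesunate through a disulfide bond. Both groups thus share the tumor line and the host strain. The GB2 dose of this model was 10 mg/kg, given intravenously, and the dose and collection time of the sequenced tumors are not stated separately. Bulk RNA-seq was made from each tumor, so that every value averages tumor cells, vessels, fibroblasts and immune cells, and a larger number of cells of one type cannot be told apart from more RNA per cell.

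VEGF ligands are secreted growth factors that drive the sprouting and permeability of blood and lymphatic vessels. VEGF-A acts on endothelial cells mainly through the receptor tyrosine kinase encoded by Kdr, while the Flt1 receptor binds VEGF-A tightly with little kinase activity and also binds the products of Vegfb and Pgf. VEGF-C acts through Flt4, mainly on lymphatic vessels. The angiopoietins act on the receptor Tek, with the related Tie1 as a partner that binds no ligand well, and Angpt2 is known to loosen vessels and to antagonise Tek signalling in many settings. In solid tumors the ligands are made by tumor, stromal and immune cells, and the receptors are found mainly on endothelial cells, with Flt1 also on myeloid cells.

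All 5 receptor genes were higher in GB2 tumors in the comparison that follows, so the 150 bases before their start sites are shown, from RefSeq on GRCm38.p6, each 5′ to 3′ on the strand of its gene. Capitals mark the letters GGAAG or, on the other strand, CTTCC, a common form of the core bound by ETS factors, a family that includes endothelial regulators.
Kdr, chr5:75978456-75978605, minus strand: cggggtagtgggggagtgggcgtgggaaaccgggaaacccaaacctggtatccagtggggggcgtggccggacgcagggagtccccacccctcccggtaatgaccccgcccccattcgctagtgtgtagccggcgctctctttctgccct
Flt1, chr5:147726012-147726161, minus strand: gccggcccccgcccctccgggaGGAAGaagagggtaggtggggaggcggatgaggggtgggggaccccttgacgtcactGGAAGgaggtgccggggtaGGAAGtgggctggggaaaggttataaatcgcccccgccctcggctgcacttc
Flt4, chr11:49609529-49609678, plus strand: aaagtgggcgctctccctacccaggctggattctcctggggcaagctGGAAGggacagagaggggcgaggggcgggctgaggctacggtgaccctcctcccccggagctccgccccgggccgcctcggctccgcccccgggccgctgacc
Tek, chr4:94739139-94739288, plus strand: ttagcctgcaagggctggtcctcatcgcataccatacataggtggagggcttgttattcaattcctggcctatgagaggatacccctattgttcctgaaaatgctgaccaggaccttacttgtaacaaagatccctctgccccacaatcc
Tie1, chr4:118489850-118489999, minus strand: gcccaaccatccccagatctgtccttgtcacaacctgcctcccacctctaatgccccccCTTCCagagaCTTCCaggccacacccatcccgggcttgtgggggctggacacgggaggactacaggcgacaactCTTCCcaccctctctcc
The letters were found in 3 of the 5 receptor windows, 3 times in Flt1, 3 times in Tie1 and once in Flt4, with no match in Kdr or Tek. Of all 32851 RefSeq promoter windows of this length, 47.7% hold them on at least 1 strand. Among the ligands, Vegfa held them once in each of its 2 windows, and Pgf, Vegfb and Vegfc had no match. The shorter GGAA was not counted, and it can be read in the Kdr window, as can its complement TTCC in the Tek window. The motif GATAA, a longer form of the core GATA bound by GATA factors, or its complement TTATC, was in 0 of the 5 windows and in 13.3% of all windows. The shorter core was not counted over all windows. It can be read as GATA in the Tek window and as its complement TATC in the Kdr window. Base composition differed among the receptors, with 48.7% G and C in the Tek window, between 62.7% and 74.0% in the others, and a median of 54.0% over all windows. The table of promoters held 9 of the 10 genes, without Angpt2.

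The libraries held between 64764405 and 83690056 counts, about 4 of which stand for 1 read pair, with the GB2 libraries the larger ones in every pairing with a PBS library. PBS tumor 1 stood apart from the other 5 tumors on the first principal component, which held 34.0% of the variance, and without it the receptors had log2 fold changes from 0.66 to 1.92. All 10 genes passed the filter on low counts, with 19602 genes tested. The least abundant was Tek, whose 48 counts in PBS tumors 2 and 3 stand for about 12 read pairs, and the most abundant was Vegfa, with at least 20539 counts in every tumor. The tumor epithelial markers Epcam, Cdh1, Krt8 and Krt18 were low, at a summed 2.60 to 5.90 CPM in PBS tumors and 3.28 to 7.74 CPM in GB2 tumors, and Krt19 did not pass the filter. The endothelial markers, a longer list of 20 genes, were present in every tumor, at a summed 244 to 363 CPM in PBS and 428 to 475 CPM in GB2 tumors. A large part of these sums was Eng, named after its values were seen. It was at 102 to 207 CPM in PBS and 171 to 216 CPM in GB2 tumors.

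The question was whether ligand and receptor genes differed between GB2 and PBS tumors. All 5 receptor genes were higher in GB2 tumors, by 1.59-fold for Flt1 to 3.23-fold for Tek, and in each of them the GB2 and PBS tumors did not overlap. Over all genes tested, 8.61% showed such a separation with GB2 on the higher side. Among the 5 ligand genes only Vegfc had a positive estimate, although that of Angpt2 was slightly positive on the FPKM scale, and Pgf was the only one whose groups did not overlap, with GB2 on the lower side, as in 6.68% of all genes. The quasi-likelihood test of edgeR, with p values adjusted over all genes, called 0 of the 10 genes and 0% of all genes, where a call needs an adjusted p under 0.05 and a change of 2-fold or more. An unadjusted p under 0.05 was reached by 6 of the 10, against 6.94% of all genes. These were 5 receptors on the higher side and 1 ligand, Vegfa, on the lower side, where 4.69% of all genes were higher and 2.24% were lower at this limit. With a change of 2-fold or more as well, Kdr and Tek were the 2 that remained on the higher side and 0 were on the lower side, against 3.74% and 0.918% of all genes. Fold changes are given below as log2FC, the edgeR estimate of log2 of GB2 over PBS, with its standard error (SE), and adjusted p values are those of edgeR unless DESeq2 is named. DESeq2 called 2 of the 10, Kdr and Tek, among 385 genes in all. On simulated counts with no change, DESeq2 made 35 false calls and edgeR 0. The labels do not say whether each tumor came from its own mouse, so the p values measure the spread between these 6 tumors.

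**Figure D1:**
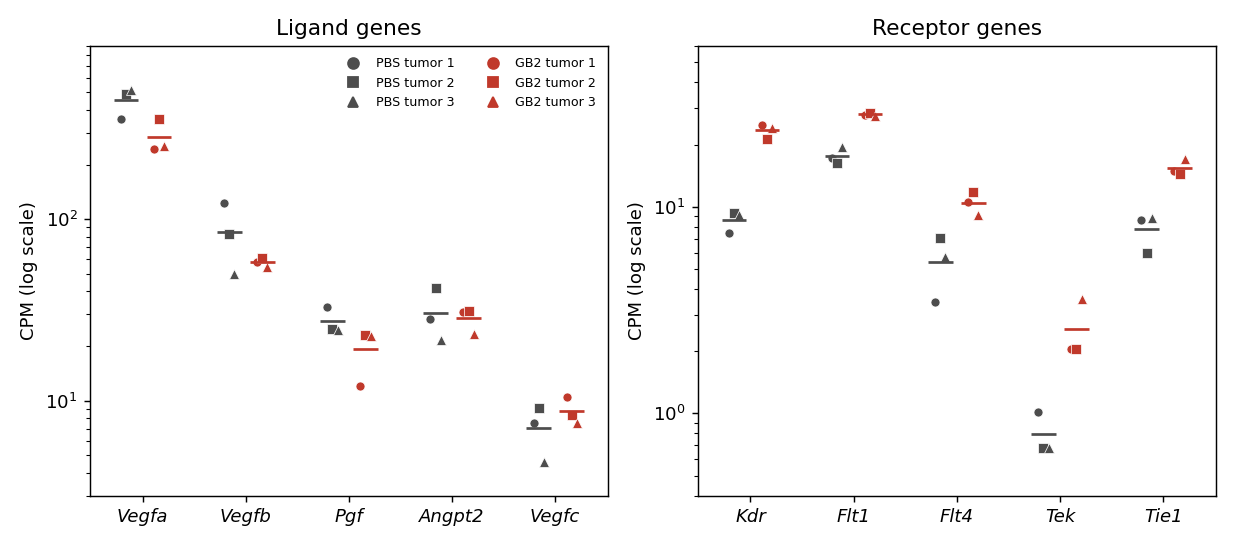
CPM of each ligand gene (left) and receptor gene (right) in every tumor, on log axes. Each point is 1 tumor and each bar the mean of 3 tumors, with PBS in grey and GB2 in red. In the receptor panel the GB2 points of each gene lie above all of its PBS points, while in the ligand panel the groups overlap except for Pgf.

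Kdr (ENSMUSG00000062960) encodes the main signalling receptor for VEGF-A and lies on chromosome 5 from 76093487 to 76139118 in the positions of the deposited table. It was at 7.47, 9.31 and 9.14 CPM in PBS tumors 1, 2 and 3, and at 25.0, 21.4 and 24.1 CPM in GB2 tumors 1, 2 and 3. The groups were tight and far apart, and the lowest GB2 tumor was 2.30 times the highest PBS tumor. The means were 8.64 ± 1.01 CPM (SD, n = 3) and 23.5 ± 1.88 CPM (SD, n = 3), with a log2FC of 1.44 (SE 0.20, 95% interval from 0.98 to 1.91). The unadjusted p of 1.2e-04 ranked 8 among all genes tested, and edgeR's adjusted p was 0.186. DESeq2 gave Kdr an adjusted p of 7.6e-10. With any single tumor left out, its log2FC stayed between 1.36 and 1.51, and by limma on log2(FPKM + 1) it was 0.91.

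Flt1 (ENSMUSG00000029648), on the same chromosome from 147498414 to 147662821, encodes the VEGF receptor that also exists as a soluble decoy. PBS tumors 1 to 3 had 17.2, 16.3 and 19.5 CPM, and GB2 tumors 1 to 3 had 27.9, 28.6 and 27.6 CPM. The 3 GB2 values were nearly equal, with an SD of 0.477 CPM, and the lowest was 1.41 times the highest PBS value. Its log2FC was 0.67 (SE 0.17), with an unadjusted p of 0.0050 and an adjusted p of 0.328 by edgeR, against 0.0073 by DESeq2. The counts are per gene, and therefore hold the membrane and the soluble form together.

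Tek (ENSMUSG00000006386), the angiopoietin receptor, lies on chromosome 4 from 94627526 to 94763213 and had the largest estimate and the fewest counts of the 10 genes. PBS tumors 1 to 3 held 60, 48 and 48 counts of it, and GB2 tumors 1 to 3 held 173, 170 and 303. On the CPM scale these are 1.01, 0.681 and 0.679 against 2.06, 2.04 and 3.56. GB2 tumor 3 was the highest, and the other GB2 tumors lay close together above the PBS tumors. The log2FC was 1.69 (SE 0.39), with an unadjusted p of 0.0028 and an adjusted p of 0.276 by edgeR and 0.0061 by DESeq2. Without GB2 tumor 3 the log2FC was 1.38, and without PBS tumor 1 it was 1.92. The estimate was 0.40 by limma on log2(FPKM + 1), a scale that understates changes of low genes.

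Tie1 (ENSMUSG00000033191), the partner receptor of Tek, shares its chromosome, from 118328388 to 118347258. Its PBS values were 8.62, 5.96 and 8.84 CPM, and its GB2 values 14.9, 14.4 and 17.0 CPM. All GB2 values lay above all PBS values, and the log2FC was 0.98 (SE 0.24), with an unadjusted p of 0.0037 and an adjusted p of 0.292 by edgeR and 0.0071 by DESeq2. Flt4 (ENSMUSG00000020357), the VEGF-C receptor, lies on chromosome 11 from 49500090 to 49543566 and varied more among PBS tumors, at 3.47, 7.07 and 5.70 CPM, where the highest was 2.04 times the lowest. Its GB2 values of 10.5, 11.7 and 9.08 CPM were all higher. The log2FC was 0.95 (SE 0.31) with an adjusted p of 0.534 by edgeR, and its unadjusted p of 0.017 was 0.0595 without GB2 tumor 2. On the log2(FPKM + 1) scale the estimate was 0.48. Of the 5 receptors, Flt4 was the only one whose unadjusted p was above 0.05 when some single tumor was left out, and the only one with a DESeq2 adjusted p above 0.05, at 0.132.

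Vegfa (ENSMUSG00000023951), the main ligand of Kdr and a gene induced by low oxygen, lies on chromosome 17 from 46327919 to 46343295. Levels were 356, 489 and 514 CPM in PBS tumors 1 to 3, and 245, 356 and 253 CPM in GB2 tumors 1 to 3. GB2 tumor 2 reached the level of PBS tumor 1, so the groups overlapped by this pair, and the other GB2 tumors lay below every PBS tumor. The means were 453 ± 85.2 CPM (SD, n = 3) and 284 ± 62.1 CPM (SD, n = 3). The log2FC was -0.67 (SE 0.23), with an adjusted p of 0.584 by edgeR. The unadjusted p of 0.021 depended on single tumors, at 0.0659 or 0.0664 with PBS tumor 2 or 3 left out, and at 0.0848 or 0.0779 with GB2 tumor 1 or 3 left out.

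Vegfb (ENSMUSG00000024962), a ligand of Flt1 on chromosome 19 from 6959841 to 6965019, spread widely among PBS tumors, at 123, 82.7 and 49.7 CPM, and narrowly among GB2 tumors, at 58.1, 60.8 and 54.5 CPM. PBS tumor 3 lay below all GB2 tumors and the other PBS tumors above them. The log2FC was -0.56 (95% interval from -1.28 to 0.16, edgeR adjusted p 0.757), and it was -0.18 without PBS tumor 1 and -0.83, with an unadjusted p of 0.0075, without PBS tumor 3. Pgf (ENSMUSG00000004791), the placental growth factor gene on chromosome 12 from 85213409 to 85224564, had 32.9, 24.8 and 24.7 CPM in the PBS group and 12.1, 23.1 and 22.6 CPM in the GB2 group. The groups did not overlap, but GB2 tumors 2 and 3 lay just under PBS tumors 2 and 3. Its log2FC was -0.51 (95% interval from -1.18 to 0.16, edgeR adjusted p 0.757), and it was -0.26 without GB2 tumor 1. The 4 ligands other than Vegfa had unadjusted p values from 0.110 to 0.725 in edgeR's quasi-likelihood test.

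Vegfc (ENSMUSG00000031520), the lymphatic growth factor gene, and Angpt2 (ENSMUSG00000031465) both lie on chromosome 8, from 54530641 to 54640131 and from 18740279 to 18791578. Vegfc was at 7.56, 9.07 and 4.60 CPM in PBS and at 10.5, 8.37 and 7.55 CPM in GB2 tumors, with groups that overlapped. Its log2FC was 0.32 with a 95% interval from -0.40 to 1.04, and single tumors moved it, to 0.17 without GB2 tumor 1, and to 0.09 or 0.54 with PBS tumor 3 or 2 left out. Angpt2 values were 28.0, 41.9 and 21.7 CPM in PBS and 31.0, 31.2 and 23.4 CPM in GB2 tumors. The GB2 range lay inside the PBS range, and the log2FC of -0.10 had a 95% interval from -0.73 to 0.53. Its sign was positive without PBS tumor 2, at 0.20. Mcph1 overlaps the whole Angpt2 gene on the opposite strand, with 1202 to 2040 counts per tumor, and whether strand was used in counting is not stated in the sources used here.

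**Figure D2:**
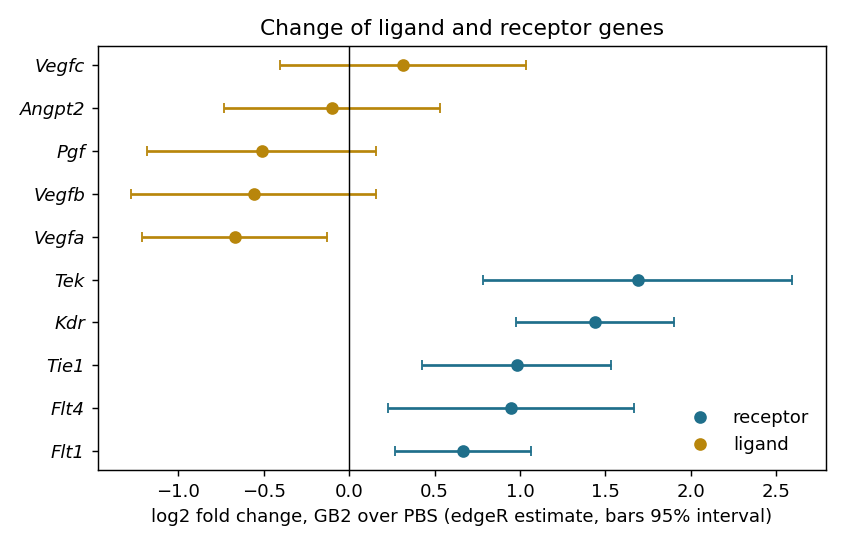
Log2FC of GB2 over PBS tumors for each gene, as estimated by edgeR, with 95% intervals, for 5 receptors (blue) and 5 ligands (ochre). The intervals of all 5 receptors lie above 0, that of Vegfa lies below 0, and those of the other 4 ligands include 0.

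Ligands and receptors were then set against each other within each tumor, as means of log2 CPM over the 5 genes of each kind. The receptor mean was 2.45 ± 0.07 (SD, n = 3) in PBS tumors and 3.60 ± 0.09 (SD, n = 3) in GB2 tumors, and the ligand mean was 5.51 ± 0.28 and 5.23 ± 0.14. Receptor minus ligand was -3.24, -3.27 and -2.65 in the PBS group, and -1.59, -1.85 and -1.45 in the GB2 group. The groups were separate, and their means differed by 1.43, of which the receptor means gave 1.15 and the ligand means, whose groups overlapped, the rest. With each tumor left out in turn this difference lay between 1.32 and 1.63, and on the log2(FPKM + 1) scale it was 0.80. No p is given for these means, since the genes were chosen as a set with earlier results of these data known.

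Levels of different genes were compared per transcript length, in FPKM. In PBS tumors the order was Vegfa (99.2 ± 24.6 FPKM, SD, n = 3), Vegfb (48.5 ± 17.9), Pgf (8.73 ± 0.852), Angpt2 (7.72 ± 2.81), Vegfc (2.67 ± 0.864), Tie1 (1.47 ± 0.293), Flt1 (1.22 ± 0.167), Kdr (0.895 ± 0.161), Flt4 (0.619 ± 0.237) and Tek (0.152 ± 0.0252). Every ligand thus stood above every receptor in this order, and the neighbours whose tumors overlapped were Pgf and Angpt2, Tie1 and Flt1, and Kdr and Flt4. In GB2 tumors Vegfa (64.9 ± 12.5 FPKM, SD, n = 3) and Vegfb (35.3 ± 1.36) again led. They were followed by Angpt2 (7.57 ± 1.12), Pgf (6.48 ± 2.05), Vegfc (3.53 ± 0.654), Tie1 (3.07 ± 0.321), Kdr (2.55 ± 0.258), Flt1 (2.03 ± 0.0192), Flt4 (1.24 ± 0.136) and Tek (0.531 ± 0.188). Here the tumors of Angpt2 and Pgf, of Pgf and Vegfc, and of Vegfc and Tie1 overlapped.

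The ratio of ligand to receptor was lower in GB2 tumors for the main pairs. Vegfa over Kdr, both in FPKM, was 100, 111 and 119 for PBS and 20.6, 35.1 and 22.1 for GB2. Angpt2 over Tek was 36.0, 80.1 and 41.6 in PBS against 19.3, 19.6 and 8.41 in GB2 tumors. Both ratios had separate groups, whereas Vegfc over Flt4 overlapped, at 7.33, 4.31 and 2.72 against 3.38, 2.39 and 2.80. Summed over the 5 genes of each kind, ligands were 38.7 ± 5.12 times the receptors in PBS tumors (SD, n = 3) and 12.6 ± 2.29 times in GB2 tumors (SD, n = 3).

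The balance between both VEGF-A receptors also differed. Flt1 over Kdr in FPKM was 1.54, 1.17 and 1.43 with PBS and 0.748, 0.893 and 0.767 with GB2. In FPKM, Flt1 was thus the higher of the pair in each PBS tumor and Kdr in each GB2 tumor. This order rests on the transcript lengths that FPKM uses. In CPM, Flt1 stood above Kdr in every tumor, at 27.9, 28.6 and 27.6 against 25.0, 21.4 and 24.1 in the GB2 tumors. Together they made up 46.9% to 50.3% of the summed receptor FPKM in PBS tumors and 47.0% to 50.5% in GB2 tumors.

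**Figure D3:**
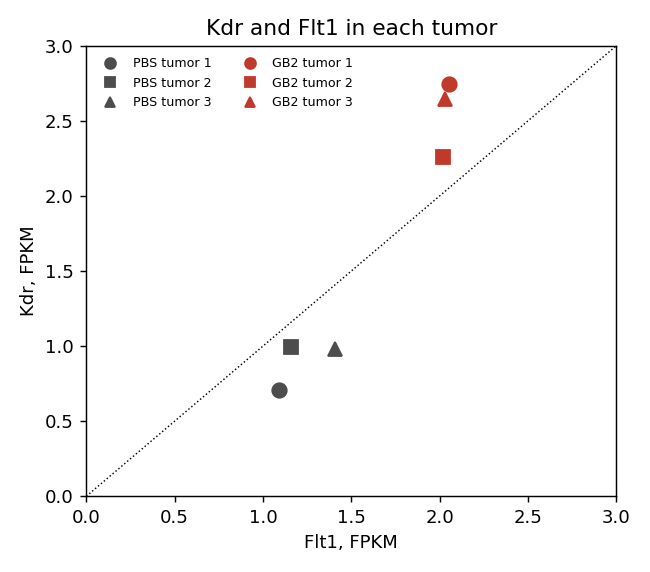
FPKM of Kdr against FPKM of Flt1 in each of the 6 tumors, with a dotted line where both are equal. The 3 PBS tumors (grey) lie below the line and the 3 GB2 tumors (red) above it, with Flt1 over Kdr between 0.748 and 0.893 in GB2 tumors.

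Markers of the cells that carry the receptors were higher as well. Of 20 endothelial markers, none of them one of the 10 genes, 19 were higher in GB2 tumors with a median log2FC of 0.81, where the median over all genes tested was -0.02. The groups were separate with GB2 on the higher side in 17 of them, against 8.61% of all genes, and 13 had an unadjusted p under 0.05 on that side, against 4.69% of all genes, while 0 were called by edgeR after adjustment. The smallest p values were those of the adhesion molecule gene Pecam1 (log2FC 1.34, adjusted p 0.186 by edgeR), which leukocytes also express, Podxl (1.05, 0.227), Cd34 (1.11, 0.269) and Mmrn2 (1.01, 0.283). The exception, named after its values were seen, was Vwf, which encodes a clotting factor stored in endothelial cells, at -0.48 with an unadjusted p of 0.234.

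Each receptor was therefore also expressed relative to the mean log2 CPM of these 20 markers in the same tumor. Kdr stood 0.46, 0.43 and 0.57 above the marker mean in PBS tumors and 1.08, 1.02 and 1.12 above it in GB2 tumors. These groups were separate, with a difference of 0.59 between their means. The 20 markers themselves spread widely, with log2FCs from -0.48 to 1.48, a range that holds the 1.44 of Kdr but not the 1.69 of Tek. The only marker above Kdr was Sox17, named after its values were seen, a low gene with means of 0.810 CPM in PBS and 2.26 CPM in GB2 tumors. For Flt1 the values were 1.66, 1.23 and 1.66 in PBS and 1.24, 1.44 and 1.32 in GB2 tumors, which overlapped, with a difference of -0.19. The groups also overlapped for Tie1, Flt4 and Tek, whose differences were 0.14, 0.14 and 0.78.

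**Figure D4:**
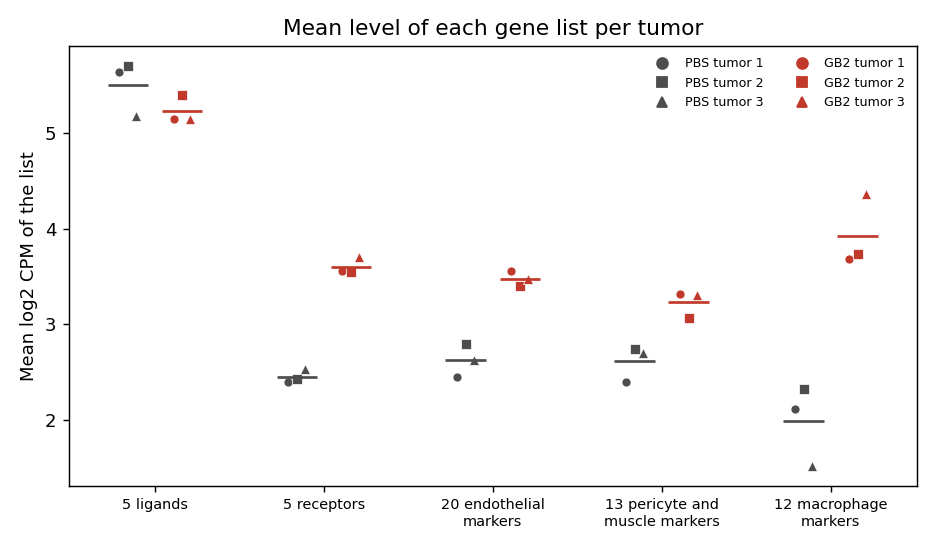
Mean log2 CPM of the ligand, receptor and marker lists in each tumor, with bars for the means of 3 PBS (grey) and 3 GB2 (red) tumors. Receptor and endothelial means are higher in each GB2 tumor than in each PBS tumor, while the ligand means overlap.

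Markers of other cells of the tumor were also compared between the groups. For none of these lists, or of those that follow, was a gene called by edgeR after adjustment. Over all genes tested, 48.3% had a positive estimate, 8.61% had separate groups with GB2 higher, and 4.69% were higher and 2.24% lower at an unadjusted p under 0.05. All 12 macrophage markers were higher in GB2 tumors (median log2FC 1.96), with summed levels of 68.3 to 98.0 CPM in PBS and 272 to 377 CPM in GB2 tumors, and the smallest p values were those of Lyz2 (2.11), Cd14 (2.24) and Adgre1 (2.55). All 9 fibroblast markers were higher, and each gene of both lists had separate groups and an unadjusted p under 0.05 (fibroblast median 1.55, 300 to 543 CPM against 1035 to 1485 CPM), with the smallest p values for Col3a1 (1.64) and Dcn (1.55). Of 13 pericyte and smooth muscle markers 12 were higher, with a median of 0.47 and an unadjusted p under 0.05 for Des (1.21), Pdgfrb (1.11) and Abcc9 (0.78), and their summed levels were 208 to 421 CPM in PBS and 361 to 401 CPM in GB2 tumors. Of 5 lymphatic markers tested 4 were higher, with a median of 1.46. Pdpn, which fibroblasts also express, gave 1.46 with an unadjusted p of 0.0021, and the groups of the others overlapped, at 1.86 for Lyve1, 1.77 for Ccl21a, 0.39 for Reln and, as the lower one, -0.11 for Prox1, named after its values were seen. Markers of muscle, skin and fat were higher in 9 of 9 genes (median 0.69), at a summed 105 to 155 CPM in PBS and 221 to 229 CPM in GB2 tumors. The groups were separate with GB2 higher in 3 of the 9, and 1, Acta1 (0.95), had an unadjusted p under 0.05. Ckm (0.58) was next, with an unadjusted p of 0.0595 by edgeR. The 5 erythroid markers had negative estimates with a median of -2.93, and 3 had an unadjusted p under 0.05, against 2.24% of all genes on the lower side, but the groups of each overlapped. Their summed level ran from 507 to 7473 CPM within the PBS group and from 94.6 to 1271 CPM within the GB2 group. The part of these cell types and of the library sizes in the receptor differences was not tested.

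Among partners of the ligands and receptors, 11 of 12 tested genes were higher in GB2 tumors, against 48.3% of all genes, and 4 of these had an unadjusted p under 0.05, against 4.69% of all genes. Nrp2 and Nrp1 encode the neuropilins, co-receptors that bind VEGF isoforms. Nrp2 was at 109 ± 37.6 CPM (SD, n = 3) in PBS and 248 ± 44.7 CPM (SD, n = 3) in GB2 tumors, with a log2FC of 1.18 (edgeR adjusted p 0.298), and Nrp1 had a log2FC of 0.88 (edgeR adjusted p 0.465). Thbs2 and Thbs1, which encode the antiangiogenic thrombospondins, had log2FCs of 2.54 and 0.83. The VEGF and angiopoietin ligands tested in this list, Angpt1 and Vegfd, are named after their values were seen. Vegfd, a ligand of Flt4, was at 0.218 ± 0.0698 CPM (SD, n = 3) in PBS and 0.515 ± 0.255 CPM (SD, n = 3) in GB2 tumors, with overlapping groups and a log2FC of 1.23 (95% interval from -0.18 to 2.65). Angpt1, the activating ligand of Tek, was the single lower gene of the list, at 0.656 ± 0.254 CPM (SD, n = 3) in PBS and 0.531 ± 0.0514 CPM (SD, n = 3) in GB2 tumors, with overlapping groups and a log2FC of -0.30 (95% interval from -1.36 to 0.76). Angpt4 and Adamts3 did not pass the filter.

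Genes of the signalling chain below the receptors had estimates mostly near 0. Of 22 such genes 19 were higher, with a median log2FC of 0.11. The groups were separate with GB2 higher in 4 of the 22, against 8.61% of all genes. Just 1 had an unadjusted p under 0.05, a share near the 4.69% of all genes that were higher at this limit. The gene was Nos3, the endothelial nitric oxide synthase gene, at 2.82 ± 0.358 CPM (SD, n = 3) in PBS and 5.96 ± 0.924 CPM (SD, n = 3) in GB2 tumors, with a log2FC of 1.08 and an adjusted p of 0.307 by edgeR. Prkcb (1.31) and Foxo1 (0.32) followed it without reaching this limit. Among 14 genes that VEGF is known to induce or that mark sprouting tip cells, 12 were higher, with a median of 0.62, against 48.3% of all genes. An unadjusted p under 0.05 was found for 5 on the higher side and 1 on the lower side, against 4.69% and 2.24% of all genes. They were Pdgfb (1.23), Nid2 (1.61), Col4a1 (0.73), Dll4 (0.78) and Col4a2 (0.64) on the higher side, and the immediate early gene Nr4a1 (-0.63) on the lower side. Esm1, a tip cell gene named, like Dll4 and Col4a2, after its values were seen, had a log2FC of -0.76 with overlapping groups.

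Genes induced by low oxygen were compared because Vegfa is one of them. Of 14 such genes, without Vegfa, 13 were lower in GB2 tumors, with a median log2FC of -0.33, where 48.3% of all genes had a positive estimate. The groups were separate on the lower side in 3 genes, against 6.68% of all genes, and 2 of these, Ankrd37 (-0.91) and Ddit4 (-0.62), had an unadjusted p under 0.05, against 2.24% of all genes. The other was P4ha1 (-0.32), named after its values were seen. The glycolysis regulator gene Pfkfb3 (0.85) was the single higher gene, and it too had an unadjusted p under 0.05 and separate groups.

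**Figure D5:**
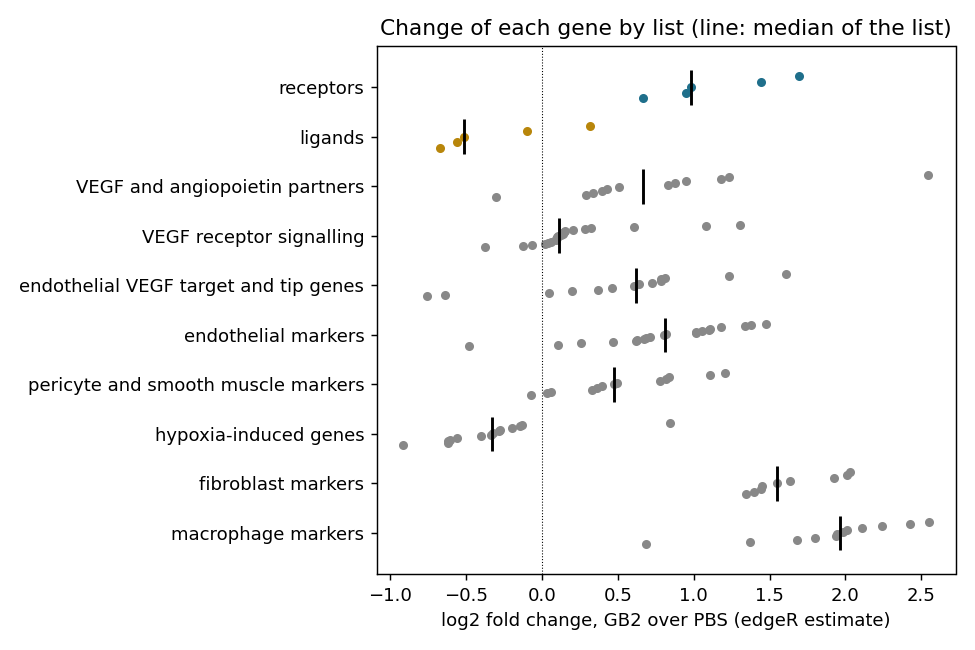
Log2FC of GB2 over PBS for each tested gene of the lists, as estimated by edgeR, with a vertical line at the median of each list. Receptors lie to the right with a median of 0.98 and ligands mostly to the left with a median of -0.51, and endothelial markers have a median of 0.81.

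Genes with the pattern most like that of the receptor mean over the 6 tumors were sought among 14236 tested genes with a mean of at least 1 CPM, by the root mean square difference of centred log2 CPM. The closest were Zfp366 (0.072), Mb (0.088), Podxl (0.0936), S1pr1 (0.0948) and Prkch (0.106), with log2FCs from 1.02 to 1.20. Mb encodes myoglobin, the oxygen-binding protein of muscle, Podxl is one of the endothelial markers, and S1pr1 encodes a sphingosine phosphate receptor that endothelial cells and lymphocytes carry. The closest to Vegfa were Pim2 (0.093), Gm45774 (0.121), Wnk4 (0.136), Neurl2 (0.144) and Gm14286 (0.146), with log2FCs from -0.84 to -0.44.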

How the data were processed

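The 6 tumors were grouped by treatment from the sample labels. The table the authors deposited gives, per gene and tumor, estimated counts (whole numbers, not scaled between tumors) and FPKM values (per transcript length and library), and all per-sample columns were used. Per the labels, libraries were poly-A selected and stranded, with paired-end reads. The submitters' processing notes name cutadapt 1.9, HISAT2 2.2.1, StringTie 2.1.6, edgeR, DESeq2 and the build mm10, without their roles. Start and end matched GRCm38 for 1.86% of the gene IDs in common, and for 0 of the 10 genes, so positions are those of the table, on a build not settled here, and only the RefSeq promoters are on GRCm38.p6. Low counts pile up at multiples of 4, with 7017 values of 4 against 2984 of 3.

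The counts were passed to edgeR 4.0.16 in R 4.3.3, filtered by filterByExpr (minimum count 10) and scaled by TMM (factors 0.914 to 1.04). The quasi-likelihood test (glmQLFit, glmQLFTest) compared the groups, with p values adjusted by Benjamini-Hochberg over all tested genes. Log2 CPM used a prior count of 2. Calls needed an adjusted p below 0.05 with a change of 2-fold or more, the limits in the study's methods. DESeq2 and limma calls used the same limits. Standard errors come from the test statistic. Alternatives were DESeq2 1.42.0, limma 3.58.1 on FPKM, other scalings and filters, counts divided by 4, a replicate block and leaving out each tumor. The computations were tested on simulated counts with known changes and with none. DESeq2 made 58 false calls in the first case and 35 in the second, against 9 and 0 by edgeR. In the first case DESeq2 recovered 76% of the changed genes and edgeR 58%.

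The common dispersion gives a coefficient of variation of 40.5% between tumors. No batch is named, and no pair of replicates was alike within sampling noise. The genes, lists and tests were chosen with earlier results of these data known. Genes named were the 10, the 2 to 4 of each list with the smallest p, and the 5 closest in pattern to the receptor mean and to Vegfa. Others are named as such.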

Additional observations from a re-analysis of the deposited data

How the results depend on the processing

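The direction of 9 of the 10 genes was the same in all 15 alternatives, and all 5 receptors were higher in each. The exception was Angpt2, whose log2 fold change of -0.10 was 0.013 in limma on log2(FPKM + 1), with or without the filter on low values, 0.019 with a pseudocount of 0.1, and between -0.29 and 0.20 when each tumor was left out in turn. Its sign turned without PBS tumor 2 (0.20) and without GB2 tumor 3 (0.03). DESeq2 called 385 genes, with Kdr and Tek the 2 called among the 10, while edgeR and limma called 0 genes in every other alternative. The number of the 10 genes with an unadjusted p under 0.05 was 6 in the main analysis and 5 or 6 in all alternatives. Of all genes tested, 6.94% were at this limit in the main analysis. In the alternatives it was from 4.53%, without GB2 tumor 2, to 10.6%, without PBS tumor 3. Receptor minus ligand differed between the groups by 0.80 instead of 1.43 in limma on log2(FPKM + 1), with or without the filter, where the pseudocount compresses the low receptor values. The log2 fold changes under this setting were 0.40 for Tek, 0.48 for Flt4 and 0.91 for Kdr, instead of 1.69, 0.95 and 1.44. Whether the tumor numbers mark pairs is not settled here. Correlations over genes between same-numbered tumors, after removing the group means, were 0.03, 0.15 and -0.24. They cannot decide it, since what remains of 3 tumors around their own mean sums to 0 for each gene. With the number as a replicate block, edgeR called 0 genes and 6 of the 10 had an unadjusted p under 0.05, where the block lowered the genes at this limit from 1360 to 957, and receptor minus ligand was 1.43. Not every tumor correlated best with its own number. With 3 tumors per group and about 12 read pairs of Tek in 2 PBS tumors, its log2 fold change had the largest SE of the 10, at 0.39.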
